A study of Mus musculus with 20 samples.

Results

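Thyroid hormone acts in a cell only after it has been taken up, converted and bound, and the genes described here carry out the conversion and the binding. They are the 3 deiodinases *Dio1*, *Dio2* and *Dio3* and the 2 nuclear thyroid hormone receptors *Thra* and *Thrb*, 5 of the 24411 genes in the count table. The members were taken by name, and *Dio2* was picked from the male comparison, for its large rise in male mutants. Its values in every comparison that holds the male mice are therefore given as a description, with no test.

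Kidney RNA came from 20 mice of 3 litters (A, B and C), each with its own library. The 4 groups were mutants and controls of either sex, and every group held 5 mice. All mice were *Pkd2* fl/fl, received doxycycline hyclate (DOX) at 50 mg per kg from P27 to P29 and were harvested at P125. Mutants carried *Pax8* rtTA and *TetO* Cre, so that DOX deleted *Pkd2*, the polycystin-2 gene, in the renal tubules. Controls were littermates that lacked one or the other transgene. *Pax8* is also a transcription factor of the thyroid gland, and neither deletion in the thyroid nor circulating hormone was measured in these files. Mice are named by sex, genotype and number (MC4 being a control male and FM3 a mutant female).

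The libraries held between 11307700 and 19324100 counts. *Pkd2* itself lay between 94.7 and 182 CPM (counts scaled by the size of each library) in mutants and between 193 and 332 CPM in controls, with no overlap. The tissue label was checked with markers: 10 proximal tubule genes summed to between 7121 and 15342 CPM, whereas 6 thyroid gland genes summed to at most 5.25 CPM in any mouse. One library, that of FM4, stood apart, with 14850 genes detected against 16776 to 17724 in the other 19, and 76 genes with exactly 1 count against 708 to 859. Calls of the members that change without it are given with and without it. Fat markers were uneven. The summed level of 8 adipose markers was 121 CPM in FM3, 69.6 in FC5 and 51.9 in FC3, and between 13.96 and 32.7 CPM in the other 17 mice. *Cox7a1*, which is on this list, alone had group means from 14.2 to 20.3 CPM and made up most of the lower sums. Brown fat is a classical site of *Dio2* expression, so *Dio2* is given beside these markers below.

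The deiodinases are selenoenzymes that remove iodine from thyroid hormones. *Dio2* converts the prohormone thyroxine (T4) into the active triiodothyronine (T3), *Dio3* inactivates both, and *Dio1*, the main deiodinase of the kidney and liver, can do either. The receptors TRα and TRβ, products of *Thra* and *Thrb*, bind DNA with retinoid X receptors and repress or activate their target genes according to whether T3 is bound. In the kidney, thyroid hormone is known for its effects on tubular transport and metabolism, and *Dio1* is itself a gene that T3 induces.

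What the 3 deiodinases share in sequence is the selenocysteine of the active site, encoded by a TGA codon that is read through instead of ending the protein. The codon with 15 bases on each side is shown in capitals, from the GENCODE M21 transcripts, to show how alike the catalytic centres of the activating and the inactivating enzymes are.
Dio1, chr4:107297700-107297702, minus strand: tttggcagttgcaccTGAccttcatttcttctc
Dio2, chr12:90729823-90729825, minus strand: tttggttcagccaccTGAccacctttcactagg
Dio3, chr12:110279739-110279741, plus strand: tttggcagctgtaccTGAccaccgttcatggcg
*Dio2* holds a second annotated selenocysteine codon near the end of its coding sequence.
Dio2, second codon, chr12:90729424-90729426, minus strand: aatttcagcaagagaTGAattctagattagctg

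On GRCm38 (mm10), *Dio1* is at chr4:107291465-107307169 on the minus strand, *Dio2* at chr12:90724552-90738438 on the minus strand and *Dio3* at chr12:110279068-110281097 on the plus strand. *Thra* is at chr11:98740638-98769006 and *Thrb* at chr14:17660261-18038090, both on the plus strand. *Thra* and *Nr1d1*, the gene of the clock repressor REV-ERBα, run in opposite directions and overlap by 263 exonic bases, or 5.70% of the exon bases of *Thra*. Since strandedness of the counting is not given in the sources used here, reads from that stretch cannot be assigned to either gene with certainty. *Dio3* and its antisense neighbour *Dio3os* do not overlap and are 895 bases apart. Counts per gene do not separate the isoforms of *Thra* or *Thrb*.

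Since *Dio2* moved most, its promoter is shown as well (RefSeq, GRCm38.p6, chr12:90738989-90739288, minus strand, 250 bases before to 50 after the annotated start). The *Dio2* promoter is known to respond to cyclic AMP, and the capitals mark a match to the cyclic AMP response element TGACGTCA that begins 95 bases before the RefSeq start. This start lies upstream of the start of the GENCODE gene model given above, which on the minus strand is base 90738438. The whole window lies outside that model, so it depends on the annotation.
Dio2 promoter: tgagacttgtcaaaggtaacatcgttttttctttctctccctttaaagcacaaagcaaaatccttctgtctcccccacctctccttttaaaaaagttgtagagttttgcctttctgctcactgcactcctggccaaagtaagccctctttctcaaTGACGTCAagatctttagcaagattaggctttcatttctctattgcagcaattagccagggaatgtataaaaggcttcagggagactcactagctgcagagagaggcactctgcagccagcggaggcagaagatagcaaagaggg
This motif was found on either strand in 588 of the 32851 promoters of the same length (1.79%) and in 1 of the 5 promoters held for 4 of the members, that of *Dio2*. The thyroid hormone response element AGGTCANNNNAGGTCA was in 0.0152% of promoters and in none of the members', and its half-site AGGTCA, which the longer motif contains, was in 16.3% of promoters and, among the members, in that of *Thrb*. *Thra* had no entry. These matches describe the letters of the windows only.

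*Dio2* was scarce in control kidneys, with the exception of FC3, and had at least 22 counts in every mutant kidney. In male controls it had 1, 6, 0, 6 and 2 counts (MC1 to MC5), or 0.0732, 0.381, 0, 0.487 and 0.129 CPM, where the count of 0 in MC3 allows up to 0.225 CPM. In male mutants it had 593, 22, 204, 232 and 39 counts (MM1 to MM5), or 33.5, 1.5, 13.4, 15.3 and 2.20 CPM. Every male mutant lay above every male control, which is the pattern on which the gene was picked. Among male mutants, MM1 was highest and MM2 lowest, and the range was wide. The fitted log2 fold change in males was 5.88, and 4.11 without MM1.

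Females were not used to pick *Dio2* and served for its test, although the members were chosen with earlier results of these data known. Most female controls held few counts, so *Dio2* passed the filter on low counts applied before the fit only through the mutants, where it was high. A fit that required at least 10 counts in every mouse gave *Dio2* no value. Female controls had 7, 1, 57, 7 and 10 counts (FC1 to FC5), or 0.462, 0.0545, 3.36, 0.417 and 0.759 CPM. Female mutants had 302, 253, 991, 39 and 24 counts (FM1 to FM5), or 15.2, 15.2, 50.2, 3.36 and 1.41 CPM. FC3 stood above the other female controls and at the level of FM4, so the groups overlapped. The mean was 17.1 ± 19.6 CPM in mutants and 1.01 ± 1.34 CPM in controls (SD, n = 5 each). The log2 fold change was 3.97 (SE 0.971), and with an adjusted p of 0.0399 (edgeR's quasi-likelihood test, Benjamini-Hochberg over 14439 genes) it missed the threshold of 0.01 used for calls in all fits. Of all genes tested in females, 0.457% were called higher and 0.180% lower in mutants. Without FM4, the library that stood apart, the log2 fold change was 4.38 and passed (adjusted p = 0.00771), in a fit that called 866 of 14595 genes against 92 with FM4. It was 2.98 without FM3 (adjusted p = 0.0908) and 5.04 without FC3 (adjusted p = 0.0558).

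Within litters A, B and C, *Dio2* in female mutants exceeded that in female controls by 4.71, 4.31 and 0.795 on the log2 CPM scale. The male differences were 4.98, 4.56 and 3.19, so that litter C, with 1 mouse per group, had the lowest value in both sexes. In the fit of both sexes together, which also holds the male mice, the log2 fold change of *Dio2* was 4.60.

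FC3 and FM3, the highest female control and the highest female mutant for *Dio2*, both carried fat markers. *Ucp1*, the uncoupling protein that defines brown fat, had 43 counts in FC3 and 95 in FM3, and *Adipoq*, the fat cell hormone adiponectin, 213 and 796. FC5, however, had 88 counts of *Ucp1* and 123 of *Adipoq* with *Dio2* at 0.759 CPM. MM1, at 33.5 CPM of *Dio2*, had 0 counts of both, as did FM1 at 15.2 CPM. FM2, also at 15.2 CPM, had 0 counts of *Ucp1* and *Adipoq* too. Among male mutants, MM4, at 15.3 CPM of *Dio2*, had 24 counts of *Ucp1* and 79 of *Adipoq*, and MM3, at 13.4 CPM, had 0 of both. With FC3, FC5 and FM3 left out together, a choice made after seeing the data, the log2 fold change of *Dio2* in females was 5.20 (adjusted p = 0.0613, 4 mutants against 3 controls). That fit called no gene at all (0 of 14626 with edgeR, of which 2299 had an unadjusted p under 0.05).

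Markers of other cells moved with genotype as well. All 6 tubule injury genes, all 6 macrophage genes and 4 of 6 fibroblast and myofibroblast genes were called higher in mutants of both sexes together, where 10.0% of all genes were. All 6 loop and distal tubule genes, 5 of 6 podocyte genes and 4 of 6 collecting duct genes were called lower, against 5.86% of all genes. Across the 10 mutants, *Dio2* (log2 CPM) had a Pearson r of 0.96 with the summed fibroblast and myofibroblast markers, of 0.88 with the macrophage markers and of 0.85 with the tubule injury markers. Its r with the proximal tubule markers was -0.69, and 1 of these 10 genes was called lower in mutants of both sexes together. Among the 10 controls, r was 0.68 with the fibroblast and myofibroblast markers, 0.67 with the adipose and 0.63 with the endothelial markers. Apart from FC3, with 57 counts of *Dio2*, no control had more than 10. FC3 also had the most fibroblast (359.5 CPM) and endothelial markers (483.4 CPM) of the controls, and no r was taken without it. The endothelial markers were also higher in female controls (381 to 483 CPM) than in male controls (278 to 340 CPM). The adipose markers had an r of 0.47 among the mutants. Without the 2 mutants farthest from the median of the fibroblast and myofibroblast markers, r with these was 0.97. The points share their libraries, 12 marker lists were compared, and the part of any cell type in the level of *Dio2* was not tested. In a kidney homogenate, a change in the number of cells of a type cannot be told apart from a change in RNA per cell.

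**Figure D1:**
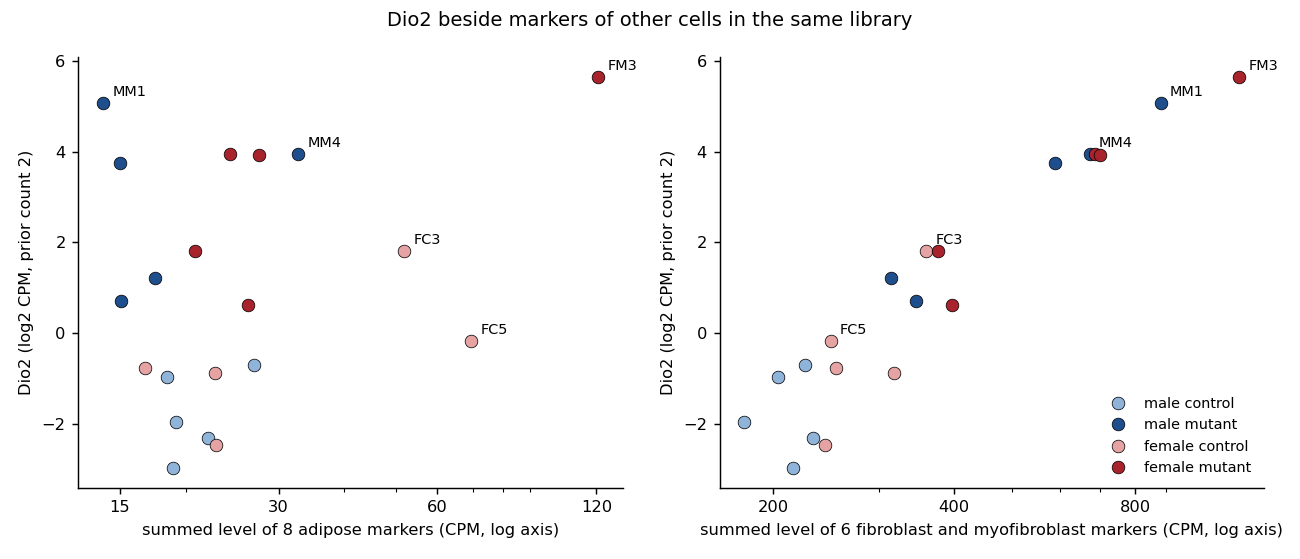
*Dio2* (log2 CPM with a prior count of 2) in each of the 20 mice against the summed CPM of 8 adipose markers (left) and of 6 fibroblast and myofibroblast markers (right), both on log axes. MM1 has the lowest adipose level, 13.96 CPM, with *Dio2* at 33.5 CPM. Nearly all of that level is *Cox7a1*, which has 13.5 to 14.8 CPM in every male mutant. FC5 has 69.6 CPM of adipose markers with *Dio2* at 0.759 CPM. On the right, the fibroblast markers of the mutants range from 314 to 1192 CPM, and the mutant with the most, FM3, also has the most *Dio2*.

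*Dio3* was scarce in all groups, and its mean was higher in mutants of both sexes. It had 2, 2, 2, 4 and 6 counts in male controls and 20, 8, 15, 10 and 13 in male mutants. Female controls had 4, 4, 4, 6 and 1 counts, and female mutants 18, 16, 28, 6 and 6. No male control reached the lowest male mutant, a separation that 6.93% of genes with a count showed in the same direction. In females the groups overlapped by a narrow margin, with FC4 at 0.357 CPM and FM5 at 0.352 CPM (2.92% of genes had every female mutant above every female control). The means were 0.811 ± 0.240 CPM in male mutants and 0.227 ± 0.120 in male controls, and 0.831 ± 0.416 in female mutants and 0.23 ± 0.102 in female controls (SD, n = 5 each).

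*Dio3* did not pass the filter on low counts in the comparisons of mutants with controls, so it was tested there by an exact permutation test chosen after seeing the data. The mean log2 CPM was 1.43 higher in male mutants (two-sided exact permutation test over 252 splits, p = 0.00794, the smallest p that 5 against 5 allow) and 1.36 higher in female mutants (exact permutation p = 0.0159). Adjusted over both sexes, each p was 0.0159, above the 0.01 used for calls in the fits. The splits did not take litter into account. An edgeR fit without the filter gave a log2 fold change of 1.82 (SE 0.332) in both sexes together with an adjusted p of 3.05e-04. Within a sex, the same fit gave 1.78 with an adjusted p of 0.0191 in males. In females it gave 1.85 with an adjusted p of 0.0701, and neither passed 0.01. By litter, the differences were 1.78, 1.05 and 0.747 in males and 1.41, 1.39 and 1.24 in females (litters A, B and C, log2 CPM). Male and female mutants did not differ detectably in *Dio3* (log2 fold change 0.04, 95% interval -0.94 to 1.01, edgeR adjusted p = 0.968).

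*Dio3* lies at the end of an imprinted domain. *Dio3os*, the antisense RNA next to it, had 2.06 CPM in male mutants and 2.19 in male controls, and 1.64 and 1.62 CPM in females (log2 fold change -0.05 in both sexes together, edgeR adjusted p = 0.921). *Meg3*, the maternally expressed RNA of the same domain, fell in male mutants, by 1.90 on the log2 scale (SE 0.423, adjusted p = 0.00910), from 1.51 to 0.437 CPM. *Meg3* was scarce, with 13 to 26 counts in male controls and 1 to 10 in male mutants, and passed the filter on low counts there only through the controls. In females it was at 1.60 CPM in mutants and 1.48 in controls (adjusted p = 0.871), and the difference between the sexes was not called (adjusted p = 0.895). The male call of *Meg3* was lost in 8 of 10 fits that each left out 1 mouse, all but those without MM1 or MM2, with adjusted p-values up to 0.0449. *Cep128*, a centriolar gene near *Dio2*, rose in both sexes together, from 5.87 to 9.12 CPM (log2 fold change 0.60, SE 0.120, adjusted p = 0.00110).

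*Dio1* differed between the sexes and not detectably between genotypes. It had 14, 15.9, 19.5, 8.44 and 11.4 CPM in male controls and 15.7, 15, 10.3, 7.53 and 13.5 in male mutants. Female controls had 54.5, 50.2, 40.0, 37.5 and 68.6 CPM, and female mutants 36.2, 48.7, 17.4, 56.7 and 51.9. Every male lay below every female of its genotype, although FM3 came within 2 CPM of the highest male mutant. The separation of all males below all females was shown by 10.8% of genes in controls and by 4.22% in mutants. In controls, the log2 fold change of males against females was -2.10 (SE 0.159, adjusted p = 1.51e-06), and in mutants -1.85 (SE 0.313, adjusted p = 0.00387). Among all genes, 8.75% were called higher and 9.02% lower in male than in female controls, and 3.59% and 1.84% in mutants.

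The sex difference of *Dio1* was present in each litter. In litters A, B and C it was -1.73, -2.30 and -2.57 in controls and -1.23, -2.03 and -1.93 in mutants (log2 CPM, male minus female). In mutants the call was lost without FM1, MM3, MM4, FM5 or MM5, with adjusted p-values of 0.01002, 0.0196, 0.0151, 0.0260 and 0.0258 and log2 fold changes from -2.11 to -1.72. Between genotypes, the log2 fold change was -0.22 in females (95% interval -0.78 to 0.34, adjusted p = 0.701) and 0.01 in males (95% interval -0.27 to 0.29, adjusted p = 0.962). In both sexes together it was -0.12 (95% interval -0.46 to 0.22, adjusted p = 0.632). Of all genes, 5.25% were called higher and 3.20% lower in male mutants, and 10.0% and 5.86% in mutants of both sexes together.

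**Figure D2:**
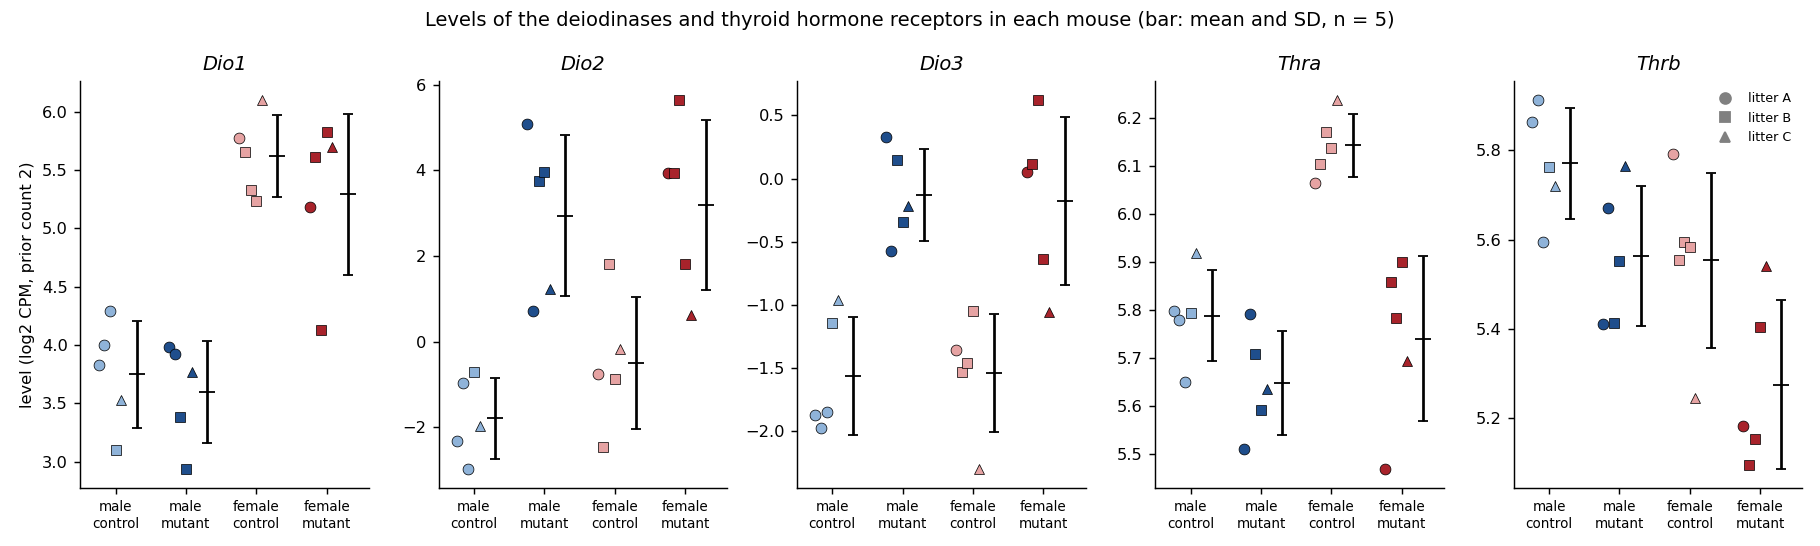
Level of each member (log2 CPM with a prior count of 2) in the 20 mice by group, with symbols for litters A, B and C and, beside the points, the mean and SD of 5 mice. *Dio2* spans from 0 to 33.5 CPM in males and from 0.0545 to 50.2 CPM in females, and in *Dio1* the males lie below the females of their genotype.

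*Thra* was slightly lower in mutants of both sexes together. It had 66.7, 68.7, 71.9, 70.2 and 75.3 CPM in female controls and 44.2, 57.8, 54.9, 59.6 and 51.6 in female mutants. Male controls had 55.5, 54.8, 50.1, 55.3 and 60.3 CPM, and male mutants 45.4, 55.3, 52.1, 48.1 and 49.6. All female mutants lay below all female controls (2.62% of genes did so), whereas the male groups overlapped. In both sexes together *Thra* fell by 0.27 on the log2 scale (SE 0.0611, adjusted p = 0.00277). With FC3, FC5 and FM3 left out together it was no longer called (log2 fold change -0.24, adjusted p = 0.0189). The log2 fold change was -0.38 in females (SE 0.0887, adjusted p = 0.0342), and -0.15 in males (SE 0.0766, adjusted p = 0.190), neither past the threshold.

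Male controls had less *Thra* than female controls. All 5 male controls lay below all 5 female controls, as in 10.8% of genes, and the log2 fold change was -0.29 (SE 0.0655, adjusted p = 0.00600). This call lay close to the threshold: it was lost in 9 of the 10 fits that each left out 1 mouse, all but that without MC3, with adjusted p-values up to 0.0501. In mutants the sexes did not differ detectably (log2 fold change -0.05, 95% interval -0.29 to 0.19, adjusted p = 0.806). The genotype change of *Thra* differed between the sexes by 0.26 (SE 0.110, unadjusted p = 0.0310), which did not pass the adjustment over all genes (adjusted p = 1). No gene was called for the sex by genotype term (0.00% of 14820 with edgeR, of which 618 had an unadjusted p under 0.05). The Wald test of DESeq2 called 18 genes, and edgeR without FM4 called 3 of 14960. *Nr1d1*, which shares bases with *Thra*, had a log2 fold change of -0.16 in both sexes together (adjusted p = 0.264) and of -0.13 between male and female controls (adjusted p = 0.187).

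By litter, *Thra* in female mutants differed from female controls by -0.59, -0.29 and -0.54 in litters A, B and C, and in males by -0.09, -0.14 and -0.28 (log2 CPM). All 6 differences had the same sign.

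*Thrb* moved in the same direction without passing the threshold. It had 55.2, 46.9, 48.2, 47.8 and 37.8 CPM in female controls and 36.2, 34.0, 35.4, 42.2 and 46.4 in female mutants, and 58.1, 60.2, 48.2, 54.1 and 52.6 in male controls and 42.4, 50.8, 42.5, 46.8 and 54.3 in male mutants. FC5 was the lowest female control, whereas FM5 and MM5 were the highest mutants of their sex. These 3 mice are of litter C, and in that litter the mutants were higher by 0.29 in females and 0.05 in males (log2 CPM). The log2 fold change in both sexes together was -0.23 (SE 0.0794, adjusted p = 0.0355), and it passed without FC5 (-0.30, adjusted p = 0.00576) or without FM5 (-0.29, adjusted p = 0.00589). In females alone it was -0.26 (adjusted p = 0.272), and in males alone -0.20 (adjusted p = 0.138). Males had slightly more *Thrb* than females, by 0.23 in controls (adjusted p = 0.0957) and 0.30 in mutants (adjusted p = 0.0908), which also missed the threshold.

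**Figure D3:**
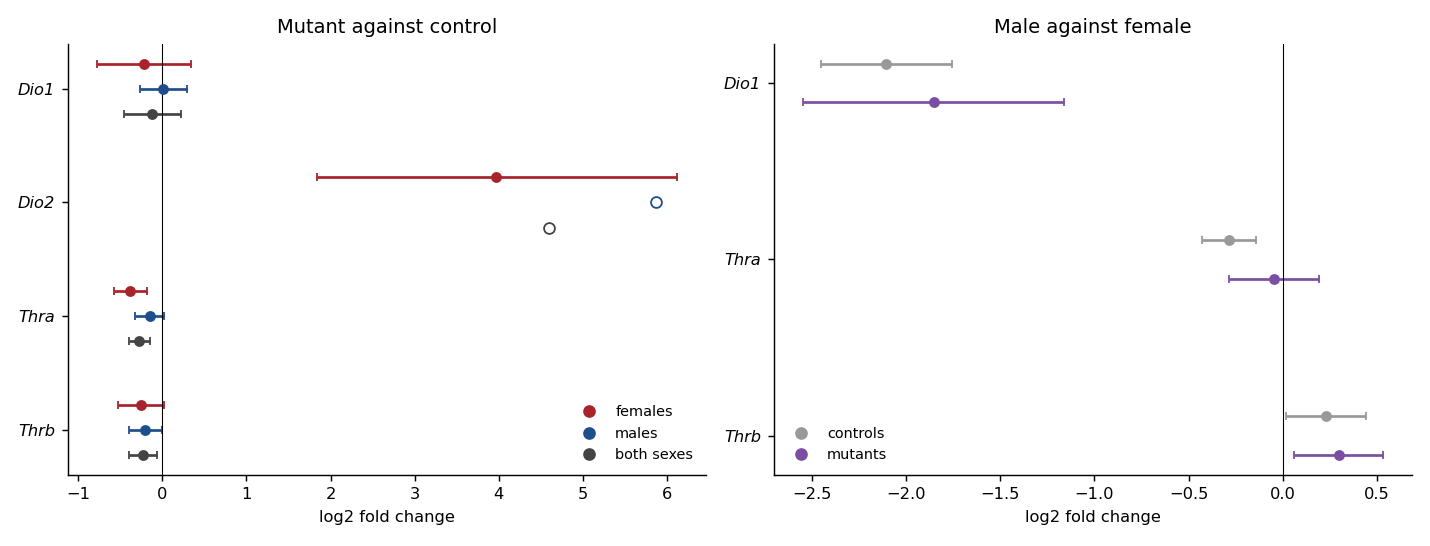
Log2 fold changes of mutants against controls (left) and of males against females (right) with 95% intervals from the edgeR fits. Open symbols mark *Dio2* where male mice enter the fit, shown without an interval; *Dio3*, which passed the filter between mutant sexes but not in the other comparisons plotted, is left out. *Dio2* in females is at 3.97, the receptors lie between -0.38 and -0.15 on the left, and *Dio1* is at -2.10 and -1.85 on the right.

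Levels were compared between genes only after division by exon length, as CPM per kilobase. In female controls the order was *Dio1* (25.5 ± 6.35), *Thra* (15.3 ± 0.709), *Thrb* (6.37 ± 0.839), *Dio2* (0.174 ± 0.23) and *Dio3* (0.113 ± 0.05, SD, n = 5), and *Dio2* and *Dio3* did not differ beyond their spread. In male controls *Thra* led (11.97 ± 0.786), followed by *Thrb* (7.38 ± 0.634) and *Dio1* (7.03 ± 2.13), which lay within each other's spread, and by *Dio3* (0.112 ± 0.0589) and *Dio2* (0.0368 ± 0.0360). In mutants *Dio2* reached 2.27 ± 2.23 in males and 2.94 ± 3.37 in females, and *Dio3* 0.399 ± 0.118 and 0.409 ± 0.205. Among the other members in mutants, the order was *Thra* (10.9 ± 0.817), *Thrb* (6.40 ± 0.704) and *Dio1* (6.29 ± 1.74) in males, and *Dio1* (21.4 ± 8.03), *Thra* (11.6 ± 1.32) and *Thrb* (5.25 ± 0.71) in females. The last 2 in male mutants lay within each other's spread.

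The list of the pathway held 60 further genes, of which 56 were tested in both sexes together. Mutants had 3 called higher and 2 called lower, against the 10.0% and 5.86% of all genes given above, and the median log2 fold change was -0.09 against -0.01 over all genes. In males 2 of 56 were called higher and 1 lower, where 5.25% and 3.20% of all genes were. In females 0 of 57 were called, where 0.457% and 0.180% of all genes were, although with the Wald test of DESeq2 2 were called in females and 12 in both sexes together.

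Among 7 transporters tested in both sexes together, *Slc17a4*, an organic anion carrier that also transports thyroid hormones, rose from 3.23 to 5.59 CPM (log2 fold change 0.82, SE 0.164, adjusted p = 0.00117). It was called in males too (0.77, adjusted p = 0.00475), where the call was lost in 7 of 10 fits that each left out 1 mouse, all but those without MM1, MM2 or MM3, and with all 20 mice fitted at once (adjusted p = 0.0316). The other 6 transporters were not called. Of 6 genes of hormone binding and disposal, *Crym*, the cytosolic T3 binding protein, rose from 20.3 to 26.5 CPM (0.41, SE 0.0998, adjusted p = 0.00468). This call was lost without FC1, FC2, FM1 or MM1, with adjusted p-values up to 0.0130.

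Of 13 known thyroid hormone responsive genes, 1 rose and 2 fell. *Hr*, a T3 induced corepressor, rose from 1.81 to 4.00 CPM (1.12, SE 0.251, adjusted p = 0.00279), and this was lost without MM1 (0.92, adjusted p = 0.0108). *Me1*, the cytosolic malic enzyme, fell by 0.47 on the log2 scale (SE 0.0739, adjusted p = 1.68e-04) and by 0.39 in males alone (adjusted p = 0.00683), where the call was lost in 7 of 10 fits, all but those without MM1, MM2 or MM5, and with all 20 mice at once (adjusted p = 0.0126). In females *Me1* was at -0.54 (adjusted p = 0.0233) and passed without FM4 (-0.63, adjusted p = 0.00219). *Pck1*, the gluconeogenic PEP carboxykinase, fell by 0.66 (SE 0.162, adjusted p = 0.00541), a call that was lost with FC3, FC5 and FM3 left out (adjusted p = 0.0168). It was also lost without MC1, MC2, FC1, FC4, FM1 or FM2, with adjusted p-values up to 0.0123. T3 is known to raise the expression of *Hr*, *Me1* and *Pck1* alike. The 3 called genes did not move in one direction, 10 of the 13 were not called, and a change in T3 action was not tested. *Gpd2*, the mitochondrial glycerol phosphate dehydrogenase, was called in males (0.49, SE 0.0740, adjusted p = 0.00175) and not in both sexes together (0.28, adjusted p = 0.0151). The male call was lost without MC4 (adjusted p = 0.0149), and the combined value passed without FC1, FM1, FC5 or FM5. *Dio1*, also T3 responsive, is described above.

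None of the 2 retinoid X receptor genes, 12 corepressors and coactivators, 9 genes of selenoprotein synthesis, 6 genes of *Dio2* protein turnover and 2 integrin genes of the membrane receptor tested in both sexes together was called with edgeR. Their median log2 fold changes were -0.13, 0.00, -0.08, -0.16 and 0.40. Leaving out single mice moved the number of pathway genes called in both sexes together between 3 (without MM1) and 11 (without FM4), with 9 without FC5 and 9 without FM5.

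Of 56 pathway genes, 14 were called higher and 7 lower in male than in female controls, where 8.75% and 9.02% of all genes were, and 7 and 2 in mutants, where 3.59% and 1.84% were. Together these were 9 without MC4 in controls, against 21, and between 5 (without FM1, FM5 or MM5) and 15 (without FM4) in mutants. *Me1* was among them, with 668 CPM in male controls and 284 in female controls (log2 fold change 1.21, SE 0.0684, adjusted p = 8.45e-08).

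**Figure D4:**
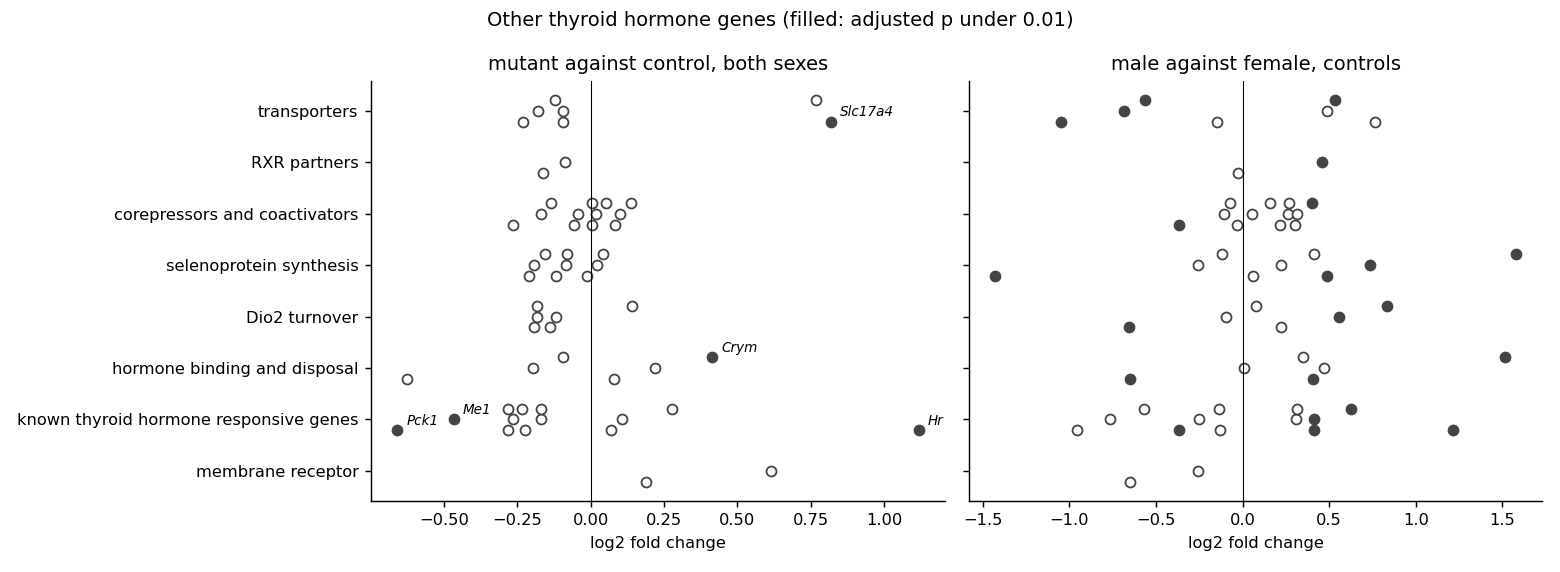
Log2 fold changes of the other thyroid hormone genes by role, for mutants against controls in both sexes together (left) and for males against females in controls (right); each symbol is a gene, *Ppargc1a* stands under both of its roles, and filled symbols passed an adjusted p of 0.01. On the left 5 of 56 genes are filled, and on the right 14 lie above and 7 below 0.

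Disease burden varied between mutants, and kidney weight as a percentage of body weight (KBW) ran from 0.836% in FM4 to 2.15% in MM1. Across the 10 mutants, *Dio3* had a Pearson r of 0.64 with KBW (permutation p = 0.0434, adjusted 0.0820) and a Spearman rho of 0.71 (permutation p = 0.0275, adjusted 0.0824). *Thra* had r = -0.63 (permutation p = 0.0547, adjusted 0.0820) and rho = -0.59 (permutation p = 0.0820, adjusted 0.123). *Thrb* had r = 0.09 (permutation p = 0.796, adjusted 0.796) and rho = 0.16 (permutation p = 0.653, adjusted 0.653). None of these 3 relations passed the adjustment. The unadjusted permutation p of r for *Dio3* rose above 0.05 in 6 of 10 runs that each left out 1 mouse, up to 0.123. Without MM1 and FM4, the mice farthest from the median KBW, r was 0.54, -0.26 and 0.15. For *Dio2*, with no test, r was 0.54 and rho 0.53, and r was 0.36 without those mice.

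Since male mutants had larger kidneys, the relations were also taken after centring both measures within each sex, where r was 0.80 for *Dio2*, 0.83 for *Dio3*, -0.57 for *Thra* and -0.68 for *Thrb*. These centred values were not tested. *Dio1* fell into separate clusters by sex, with 5 mutants in each. Its relation with KBW was not tested, and no value was taken after centring. In the 5 female mutants *Dio1* ran in the reverse order of KBW, and the share of all genes with such an order was not taken. From the lowest KBW to the highest, *Dio1* had 56.7 (FM4), 51.9 (FM5), 48.7 (FM2), 36.2 (FM1) and 17.4 CPM (FM3). The male mutants showed no such order, and MM1, with the highest KBW, also had the most *Dio1* among them (15.7 CPM). Litters A, B and C held 3, 5 and 2 mutants, too few for values within litters.

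**Figure D5:**
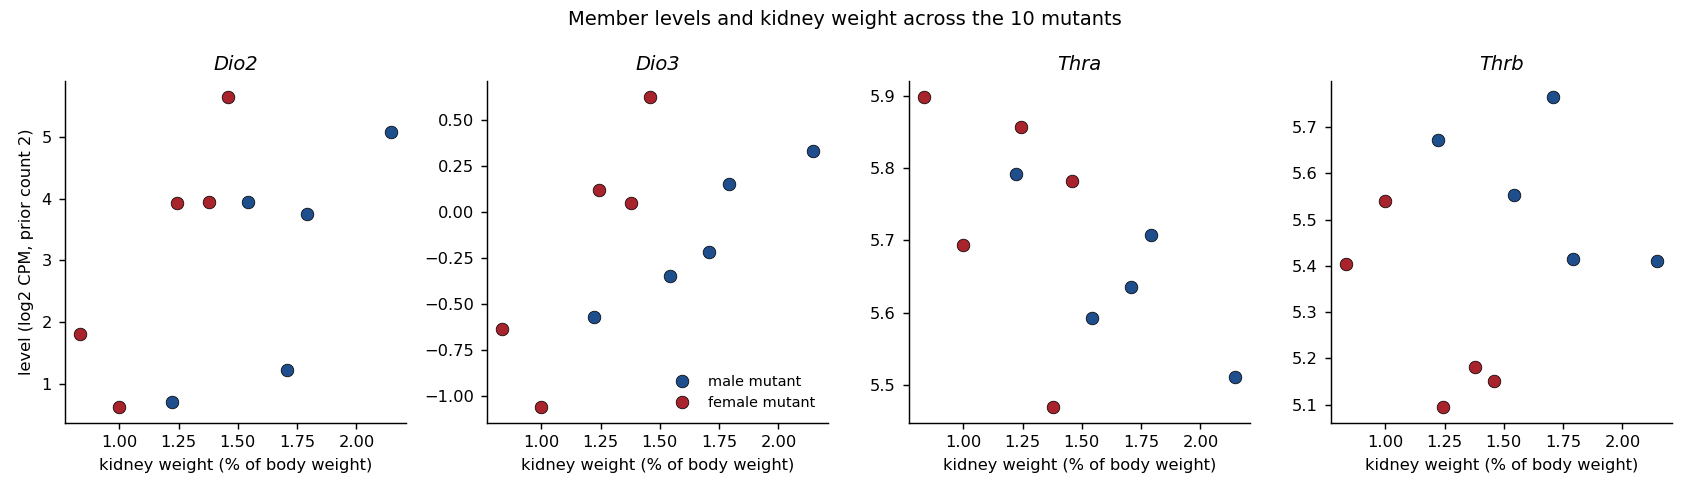
Level (log2 CPM with a prior count of 2) of *Dio2*, *Dio3*, *Thra* and *Thrb* against kidney weight as a percentage of body weight in the 10 mutants, by sex. The 5 male mutants, with 8 to 20 counts of *Dio3*, are in the same order for *Dio3* and for kidney weight. The female mutants are not: FM5 has more kidney weight than FM4 on this scale, with 0.352 CPM of *Dio3* against 0.517. After centring within sex, r was 0.83 over both sexes (not tested). MM1, at 2.15%, has 33.5 CPM of *Dio2*, more than any other male.

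Over all 20 mice, the genes whose log2 CPM followed that of *Dio2* most closely among 13780 genes were *Fosl2*, an AP-1 transcription factor (Pearson r = 0.966), *Trp53i11* (0.961) and *Klrg2* (0.959), and the same 3 genes led without FM4. *Fosl2* had a mean of 20.0 CPM in male controls, 45.6 in male mutants, 23.3 in female controls and 57.7 in female mutants. For *Dio1* the leading genes were *Vstm5* (0.953), *1700011H14Rik* (0.949) and *Rrh* (0.948), all with higher means in females of both genotypes. Without FM4 they were *Ppic* (0.961), *Vstm5* (0.949) and *Aadat* (0.946). Over all 20 mice, those of *Thra* were *Dapk1* (0.888), *Scn4b* (0.874) and *Rap1gap2* (0.857), and those of *Thrb* were *Asah2* (0.960), *Yme1l1* (0.925) and *Trpm7* (0.921). Without FM4, *Cnnm4* (0.881) took the place of *Rap1gap2*, and *Fut9* (0.947) that of *Yme1l1*. These values share the libraries and the group structure of the mice and describe likeness only.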

How the data were processed

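The deposited file held raw counts, whole numbers per gene symbol without normalization, which the authors made with STAR 2.7.10b on mm10 after read trimming by fastp 0.23.2. The counting tool, the annotation and the strandedness are not given in the sources used here. Kidney RNA of 20 mice was analysed as 4 groups of 5, taken from the labels.

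All fits used edgeR 4.0.16 (R 4.3.3), with TMM normalization, filterByExpr and the quasi-likelihood test. Litter was a term in every fit, and sex with litter where all mice entered, with Benjamini-Hochberg adjustment over all genes and calls at an adjusted p under 0.01. CPM used TMM library sizes, and log2 CPM a prior count of 2. Fits were tested on simulated counts before use. Exact and 100000-resample permutation tests used scipy on single genes. Changes of their results between settings were counted at an unadjusted p under 0.05. Gene models came from GENCODE M21 and promoters from RefSeq. Depth limits the precision of *Dio3* and of *Dio2* in controls, which had few counts.

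The members and lists were chosen with earlier results of these data known. All members were named, pathway genes and locus neighbours where called between genotypes (at most 4 per role), *Nr1d1* and *Dio3os* for their position, and the 3 genes most like each member of at least 1 CPM. The fat genes were named outside this rule, after their values were seen. The result of 1 gene on the lists is not reported here. The list symbols of 2 genes were matched by a RefSeq synonym. Tried as alternatives were the size factors and the Wald test of DESeq2 1.42.0, fits without the filter, with a minimum of 10 counts per mouse, without litter, on all 20 mice at once and without each mouse in turn, and, for single genes, a prior count of 0.5 or CPM. The permutation test of *Dio3*, the marker correlations and the fit without 3 mice were added after seeing the data.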

Additional observations from a re-analysis of the deposited data

How the results depend on the processing

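No paired analysis was possible because the labels give no replicate numbers that pair mice across groups. Mice were matched by litter instead, as a term in every fit. The following values changed their sign, their size or their side of the threshold, and the cause was not tested. In females, *Dio2* passed with the Wald test of DESeq2 (log2 fold change 3.85, adjusted p = 0.00895). When all 20 mice were fitted at once, its log2 fold change in females was 3.93, given with no test because that fit holds the male mice. *Thra* in females passed with the Wald test (-0.38, adjusted p = 0.00191) and with all 20 mice in edgeR (-0.40, adjusted p = 0.00206). *Thra* between control sexes was lost without the filter (-0.28, adjusted p = 0.0112) and with all 20 mice (-0.31, adjusted p = 0.0102), and *Thra* in both sexes together without FC3, FC5 and FM3 (-0.24). Without a call in either fit, *Dio1* in males turned to -0.16 without the litter term and -0.060 with all 20 mice, and *Meg3* in females to -0.11 without FC3, FC5 and FM3. With all 20 mice, *Slc17a4* (0.75), *Me1* (-0.39) and *Cep128* (0.63, adjusted p = 0.0197) were no longer called in males. With the Wald test *Gpd2* was called in both sexes (0.28, adjusted p = 0.00611), and *Me1* and *Pck1* in females. The unfiltered edgeR values of *Dio3* were 1.85 in females and 1.78 in males. On the CPM scale, r with KBW was 0.59 for *Dio3* (permutation p = 0.0738) and -0.64 for *Thra* (permutation p = 0.0489), changes of side at an unadjusted p of 0.05 only. With the Wald test and, after it, all 20 mice, the pathway genes called were 2 and 1 in females, 5 and 1 in males and 19 and 19 between mutant sexes, and 12 with the Wald test in both sexes together.

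Leaving out single mice gave log2 fold changes of *Dio2* from 2.98 to 5.04 in females, from 4.11 to 6.52 in males, from 4.01 to 5.44 in both sexes and from -0.96 to 0.47 between mutant sexes. *Dio1* ranged from -0.046 to 0.083 in males and from -2.11 to -1.68 between mutant sexes. *Thra* ranged from -0.30 to -0.27 between control sexes, *Thrb* from -0.30 to -0.19 in both sexes and from -0.042 to 0.23 in the sex by genotype term. *Dio3os* ranged from -0.20 to 0.40 in females and from -0.18 to 0.090 in both sexes, and *Meg3* from -0.25 to 0.42 in females. With KBW, r ranged from 0.56 to 0.75 for *Dio3*, from -0.79 to -0.49 for *Thra* and from -0.053 to 0.19 for *Thrb*. Pathway genes called ranged from 0 to 1 in females, 0 to 4 in males, 3 to 11 in both sexes, 9 to 21 between control sexes and 5 to 15 between mutant sexes.

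Over all genes, 92 were called in females, against 928 with the Wald test, 230 without the filter, 172 without the litter term and 856 with all 20 mice. Without single mice, the count in females ran from 3 (without FC2) to 866 (without FM4). In males, 1185 were called, against 2001 with the Wald test and 878 with all 20 mice. Between mutant sexes, 782 were called, against 1959 with the Wald test, 2353 with all 20 mice and from 246 (without FM1) to 1330 (without FM4) without single mice, and between control sexes 2510 against 1700 with all 20 mice. At least 10 counts in every mouse left no value for *Dio2*, for *Dio3os* in females and both sexes, or for *Meg3* in males and both sexes. In all, 1060 values kept their direction and call or, where untested, moved by less than the spread between mice, 72 lost a call, 20 gained one, 24 moved and 20 reversed.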
